A study of Mus musculus with 5 samples.

Results

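The 10 microglia genes described here are C1qa, C1qb, C1qc, Cx3cr1, Csf1r, Aif1, Trem2, Tyrobp, P2ry12 and Ctss, found by their names in a table of 15093 genes. All 10 of 10 were in the table. They were read in RNA bound to ribosomes of the central amygdala (CeA), taken by translating ribosome affinity purification (TRAP) from adult Drd2-TRAP mice, in which Cre under the control of Drd2 switches on an EGFP-tagged ribosomal protein L10a. Fear conditioned mice gave 3 libraries (replicates 2, 3 and 4) and controls gave 2 (replicates 6 and 7). Every library pooled 1 mm punches of 3 animals, taken 2 h after the session, and both groups carried the same transgenes. The labels name the controls home cage animals and place the collection after extinction, whereas the text of the study describes fear conditioning, with controls abbreviated as home cage in its methods and described elsewhere as hearing the tone without shock. The spread within a group is that between pools, and the number of control pools allows no more than 1 difference within that group.

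Microglia are the resident macrophages of the brain. They arise outside the neural lineage, survive through the receptor Csf1r, survey the tissue with moving processes, and make most of the C1q of the brain, the protein that opens the classical complement cascade and tags synapses and debris for removal. The tag in Drd2-TRAP mice is meant for neurons that use Drd2, so transcripts of microglia in such a pull-down are not those of the cells aimed at. In a pool of RNA, fewer cells of a type and less RNA per cell cannot be told apart.

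The values are normalised read numbers per 1000000 of an effective library size. The reads on genes, recovered from these values, ranged from 19605318 to 27937520 per library, so that 3 reads, used here as a floor for counting error only, stood at 0.158 or less. Control replicate 7 stood apart: 17.8% of the listed genes were at 0 in it, against 6.47% in control replicate 6 and 1.05% to 2.31% in the fear conditioned libraries, and across genes the log2 values of both control libraries had a Pearson's r of 0.787, against at least 0.979 between fear conditioned libraries. Drd2 itself had 326, 375 and 555 in conditioned mice against 128 and 262 in control mice.

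All 10 microglia genes were present at low to middling levels. Their mean values over the 5 libraries lay between 2.77 for Aif1 and 30.2 for Ctss, which is above 21.8% and 59.6% of the genes in the table. Their summed value was 141, 72.6 and 147 in conditioned replicates 2, 3 and 4, against 190 and 157 in control replicates 6 and 7, from 1743 to 5679 reads. The sum was thus lower in every fear conditioned library than in both controls, but the genes did not share this pattern, and Csf1r and Ctss carried it: they made up 24.8% to 31.7% of the sum after fear conditioning and 43.4% and 56.9% in controls.

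**Figure D1:**
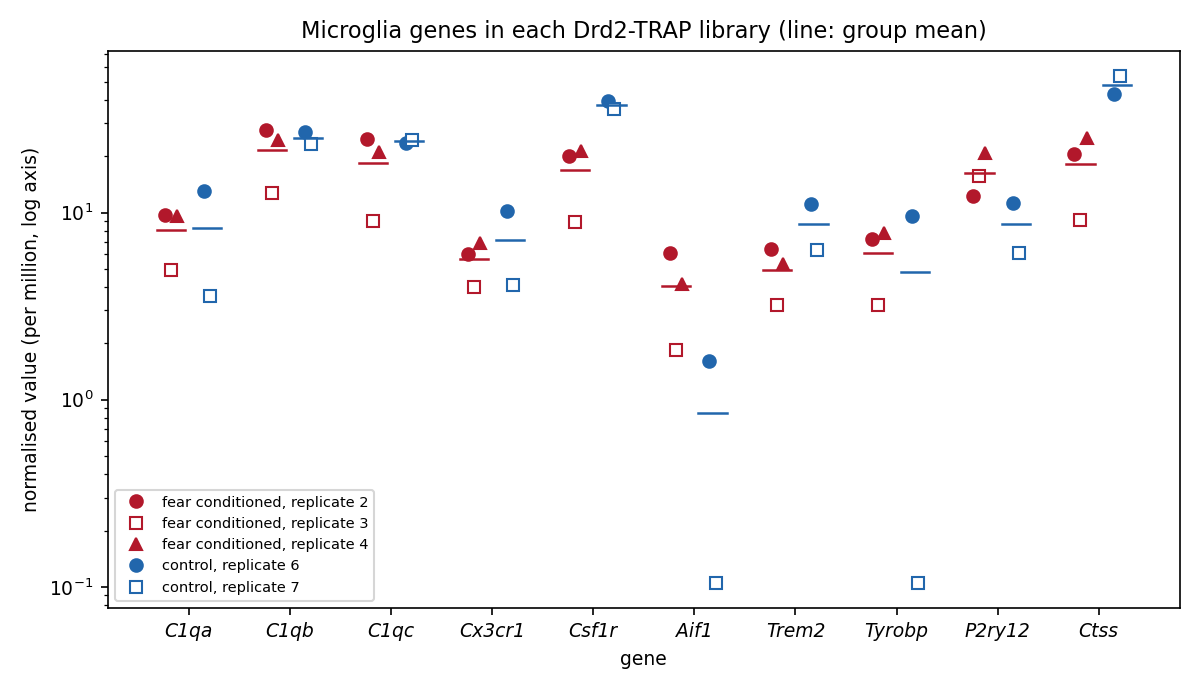
Normalised value per 1000000 (log axis) of each of the 10 microglia genes in the 3 fear conditioned libraries (red) and the 2 control libraries (blue), with a line at each group mean. Aif1 and Tyrobp drop to 0.105 in control replicate 7, Csf1r and Ctss are lower in all fear conditioned libraries, and fear conditioned replicate 3 is the lowest red point for every gene other than P2ry12.

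C1qa, C1qb and C1qc encode the A, B and C chains of C1q, and the gene nearest to each on chromosome 4 is another of them. C1qb had 27.8, 12.7 and 24.4 in conditioned replicates 2, 3 and 4, against 27.0 and 23.1 in control replicates 6 and 7. C1qc had 24.8, 9.0 and 21.2 in conditioned mice against 23.7 and 24.3 in control mice. These chains followed each other, with a ratio of C1qb to C1qc between 0.952 and 1.41 in the 5 libraries, and only fear conditioned replicate 3 lay below the rest. C1qa (ENSMUSG00000036887) had 9.67, 4.96 and 9.58 in conditioned mice against 13 and 3.59 in control mice. Its control libraries were thus the highest and the lowest of the 5, and the ratio of C1qb to C1qa was 2.08 to 2.87 in 4 libraries and 6.46 in control replicate 7. Divided by the deposited gene lengths, C1qa made 19.5% to 25.2% of the level of the 3 chains in those 4 libraries and 9.24% in control replicate 7.

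The promoters of C1qb and C1qc are shown because the ratio of their transcripts lay between 0.952 and 1.41 in all libraries. This range was not set against that of other gene pairs, and a shared regulation was not tested. C1qa had no window in the promoter table. The RefSeq windows of assembly GRCm38.p6, from 250 bases before to 50 bases after the start of a gene, lie at chr4:136886151-136886450 for C1qb and chr4:136892865-136893164 for C1qc, both on the minus strand. Capitals mark the letters GAGGAA or, from the other strand, TTCCTC, the core bound by the myeloid factor PU.1, which Spi1 encodes.
C1qb: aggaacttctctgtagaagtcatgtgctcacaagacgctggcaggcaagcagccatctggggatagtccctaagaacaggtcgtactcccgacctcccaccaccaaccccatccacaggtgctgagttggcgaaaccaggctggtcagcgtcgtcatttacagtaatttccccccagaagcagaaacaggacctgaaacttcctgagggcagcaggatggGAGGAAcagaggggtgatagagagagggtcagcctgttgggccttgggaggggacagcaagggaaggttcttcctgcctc
C1qc: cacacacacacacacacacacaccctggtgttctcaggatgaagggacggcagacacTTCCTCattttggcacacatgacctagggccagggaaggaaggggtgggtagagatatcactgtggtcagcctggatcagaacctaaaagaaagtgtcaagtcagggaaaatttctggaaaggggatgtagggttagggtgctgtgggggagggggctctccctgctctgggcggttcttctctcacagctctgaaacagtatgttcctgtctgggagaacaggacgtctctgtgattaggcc
Each window holds 1 match. Of the 10 genes, 7 were found in the promoter table, and 5 of them held a match, beside 28.3% of all 32851 windows. A match is a description of letters and not a site.

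The surface receptors of the set did not share a direction between groups. Csf1r (ENSMUSG00000024621), the receptor for Csf1 and Il34 on which microglia depend, had 20.1, 8.91 and 21.4 in conditioned mice against 39.5 and 35.9 in control mice. All 3 fear conditioned libraries were below both control libraries, which differed little from each other. Cx3cr1, the receptor for the neuronal chemokine Cx3cl1, had 5.97, 4.00 and 6.90 in conditioned mice against 10.2 and 4.11 in control mice. Its control libraries spanned all but 1 of the fear conditioned values. P2ry12 (ENSMUSG00000036353), the ADP receptor that guides the processes of resting microglia, had 12.2, 15.7 and 20.8 in conditioned mice against 11.2 and 6.06 in control mice. It was higher in all 3 fear conditioned libraries, the lowest of which was close to the higher control.

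P2ry12 lies within the annotated bounds of Med12l, a subunit gene of the Mediator kinase module. The sources used here do not state whether reads were counted by strand, and reads of overlapping genes cannot then be told apart. Med12l had 2.37, 1.87 and 4.07 in conditioned mice against 1.84 and 0.105 in control mice, so it was also higher in all 3 fear conditioned libraries, from 2 to 82 reads, against 115 to 419 for P2ry12. Cx3cr1, Csf1r and Ctss overlap only noncoding genes or a pseudogene in the same annotation, and the other 6 overlap no annotated gene.

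Trem2, a receptor for lipids and debris, has no signalling tail of its own and works through the adaptor that Tyrobp encodes. Trem2 had 6.35, 3.21 and 5.31 in conditioned mice against 11.2 and 6.33 in control mice. Tyrobp (ENSMUSG00000030579) had 7.25, 3.21 and 7.80 in conditioned mice against 9.55 and 0.105 in control mice. In 4 libraries the pair was near parity in values not divided by length, with 0.682 to 1.17 units of Trem2 for each unit of Tyrobp. Per kilobase of deposited length, Tyrobp stood at 5.74 to 17.1 in those 4 libraries and Trem2 at 0.992 to 3.45. Control replicate 7 held 120 reads of Trem2 and 2 of Tyrobp. Tyrobp, with a deposited length of 559 bases, is the shortest of the 10 genes.

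Aif1 encodes IBA1, the actin-binding protein by which microglia are commonly stained. Aif1 (ENSMUSG00000024397) had 6.12, 1.83 and 4.17 in conditioned mice against 1.60 and 0.105 in control mice, the latter from 48 and 2 reads. The conditioned libraries all exceeded the controls, but the gap between 1.83 and 1.60 was small and the order was lost after quantile normalisation. Ctss (ENSMUSG00000038642) encodes cathepsin S, a lysosomal protease that trims the invariant chain of class II molecules. It had 20.5, 9.12 and 25.1 in conditioned mice against 42.8 and 53.6 in control mice, so that the groups were well apart.

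Per kilobase of deposited length, the order of the mean levels over 5 libraries was Ctss, C1qb, C1qc, Tyrobp, C1qa, Csf1r, P2ry12, Trem2, Cx3cr1 and Aif1. The level was 22.4 ± 13.2 per kilobase for Ctss (SD, n = 5 libraries), 21.2 ± 5.6 for C1qb and 1.60 ± 1.37 for Aif1. C1qb was above C1qc in 5 of 5 libraries, the only neighbours of the order that kept it throughout. Ctss was above C1qb in 2 of 5 libraries, both controls, and C1qc was above Tyrobp in 1 of 5.

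How far the control libraries lay apart differed from gene to gene. On the log2(value + 1) scale, the difference of control replicate 7 from replicate 6 was 0.04 for C1qc, -0.13 for Csf1r, -0.21 for C1qb and 0.32 for Ctss. Differences smaller than these were found in 2.94%, 8.20%, 12.6% and 18.1% of the 13560 genes tested. On this scale these 4 genes were thus among the more repeatable of the table in controls. The difference was -0.73 for Trem2, -0.79 for P2ry12, -1.13 for Cx3cr1, -1.24 for Aif1 and -1.61 for C1qa. It was -3.25 for Tyrobp, and 90.2% of genes differed by less. These 6 differences depended on the scale: after quantile normalisation they were -0.0088 for Trem2, -0.053 for P2ry12, -0.22 for Cx3cr1, 0.34 for Aif1, -0.71 for C1qa and -1.67 for Tyrobp, and with a pseudocount of 0.1 Aif1 had -3.05 and Tyrobp -5.55. The 4 genes named first then had 0.23 (C1qc), -0.052 (Csf1r), -0.018 (C1qb) and 0.34 (Ctss) after quantile normalisation. Which genes were most repeatable thus also depended on the scale. On the log2(value + 1) scale, control replicate 7 was the lower for 8 of the 10 genes and for 55.6% of all genes tested. The median size of the difference was 0.76 for the 10 genes and 1.08 for all genes. In the fear conditioned group the relation was the other way about, with a median range over 3 libraries of 1.07 for the 10 genes and 0.44 for all genes. The range over fear conditioned libraries exceeded the difference between controls for 6 of the 10 genes and for 24.3% of all genes.

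**Figure D2:**
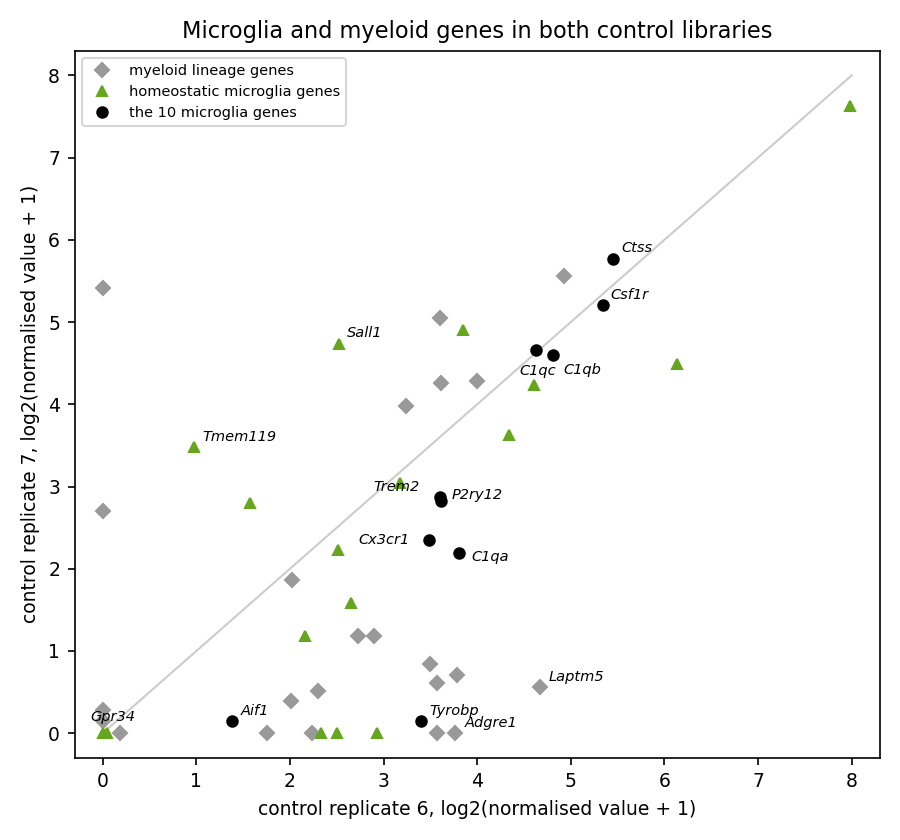
Log2(normalised value + 1) in control replicate 7 against control replicate 6 for the 10 microglia genes (black), homeostatic microglia genes (green) and myeloid lineage genes (grey), with the line of equal values. Ctss, Csf1r, C1qb and C1qc lie near the line, and Tyrobp, Laptm5 and Adgre1 are near 0 in replicate 7 alone.

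Groups were compared with limma on log2(value + 1) over 13560 genes whose mean value reached 1, a filter that all 10 microglia genes passed. A log2 fold change is fear conditioned minus control on this scale, which understates the change of low genes. None (0 of 10) of the genes passed an adjusted p of 0.05 with an absolute log2 fold change over 0.5 in limma, as was so for 0% of all genes tested. At an unadjusted p under 0.05 there were 2 of 10 genes, both lower, beside 16.8% of all genes. The mean of Ctss was 18.2 ± 8.22 (SD, n = 3) in conditioned mice against 48.2 ± 7.65 (SD, n = 2) in control mice, with a log2 fold change of -1.46 (standard error 0.51, limma unadjusted p = 0.0268, adjusted p = 0.248). That of Csf1r was 16.8 ± 6.85 against 37.7 ± 2.52, with a log2 fold change of -1.21 (standard error 0.49, limma unadjusted p = 0.0467, adjusted p = 0.292). The unadjusted p of Csf1r was above 0.05 after quantile normalisation (0.0587 in limma), in edgeR (0.0604) and in limma without fear conditioned replicate 2 (0.0732), 3 (0.127) or 4 (0.0699), and that of Ctss was so in limma without replicate 2 (0.0524) or 3 (0.0608). The difference was the largest that the 10 ways of dividing the libraries allow for each of these genes (two-sided exact permutation test, p = 0.1, below which 3 against 2 libraries cannot go).

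The remaining genes had wider intervals for their size. For Aif1 the log2 fold change was 1.47 (standard error 0.69, 95% interval -0.20 to 3.15) and for P2ry12 0.86 (0.52, -0.40 to 2.13). For Tyrobp it was 0.98 (1.03, -1.53 to 3.49), and for Trem2 -0.70 (0.59, -2.13 to 0.72). The C1q chains had -0.27 (C1qb, -1.40 to 0.86), -0.48 (C1qc, -1.77 to 0.81) and 0.13 (C1qa, -1.56 to 1.82), and Cx3cr1 had -0.22 (-1.71 to 1.28). Each of these 8 intervals holds 0 together with changes of more than 0.5 in at least 1 direction, so neither a change nor its absence is shown at this number of libraries. The adjusted p of the 10 genes in limma ran from 0.248 to 0.937. The median log2 fold change of the 10 genes was -0.24, beside 0.08 over all genes, with 6 of 10 below 0.

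**Figure D3:**
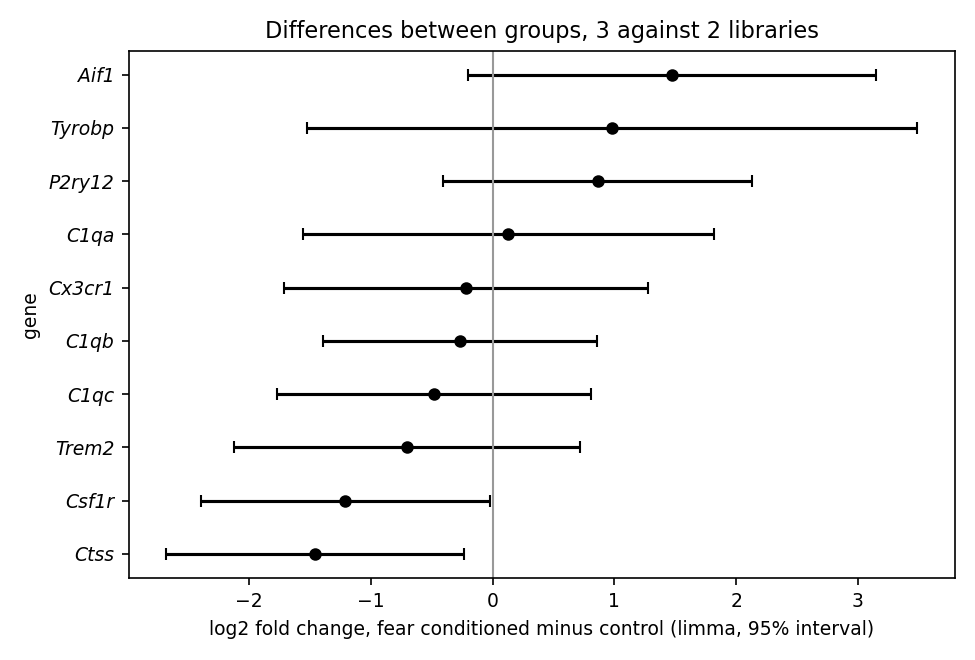
Log2 fold change of the 10 microglia genes, fear conditioned minus control, from limma on log2(value + 1), with 95% intervals. The intervals of Ctss and Csf1r lie below 0, and those of the other 8 genes cross it.

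The fear conditioned and control values did not overlap for 4 of the 10 genes, 2 higher (Aif1 and P2ry12) and 2 lower (Csf1r and Ctss). Over all genes tested this held for 36.4%, with 20.2% higher and 16.1% lower, so the share among the microglia genes was near that of the table. Without control replicate 7, 8 of 10 genes did not overlap, 6 of them lower, beside 77.9% of all genes. Without control replicate 6, it was 6 of 10, 4 of them higher, beside 87.5% of all genes. In limma without control replicate 6, 4 of 10 genes (Aif1, Tyrobp and P2ry12 higher, Ctss lower) passed both thresholds beside 60.5% of all genes, and without control replicate 7 it was 0 of 10 beside 27.5%. In such a fit the lone control is assumed to vary like the other group. Tyrobp turned from 2.61 without control replicate 6 to -0.65 without control replicate 7. On recovered reads, DESeq2 called 0 of 10 genes beside 7.47% of all genes, with 2 of 10 at an unadjusted p under 0.05 beside 20.5% of all genes. edgeR's quasi-likelihood test called 0 of 10 beside 0% of all genes, with 1 of 10 at an unadjusted p under 0.05 beside 16.6%.

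Fear conditioned replicate 3 was the lowest of its group for 9 of the 10 genes, P2ry12 excepted, and for 33.0% of all genes tested. The ratio of the highest to the lowest fear conditioned library ran from 1.70 for P2ry12 to 3.34 for Aif1. The same library was the lowest for 16 of 17 homeostatic microglia genes, 15 of 21 myeloid lineage genes, 11 of 12 oligodendrocyte genes, 10 of 11 endothelial genes, 9 of 12 astrocyte genes, 4 of 6 oligodendrocyte precursor genes and 4 of 5 mural cell genes. It was the lowest for 1 of 9 genes of Drd2 projection neurons, 1 of 12 neuronal genes and 1 of 7 choroid plexus genes. The low library of the microglia genes was thus also low in most glial and vascular markers, but not in those of the choroid plexus, and the part of these in the result was not tested.

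Markers of other cell types are set beside the microglia genes here, and no gene of these lists passed both thresholds in limma. Over all genes tested, 16.1% were lower and 20.2% higher in all fear conditioned libraries. The summed astrocyte markers stood at 1022 to 1283 after fear conditioning and at 2540 and 3107 in controls, with 7 of 12 genes lower in all fear conditioned libraries and a median log2 fold change of -0.80. Oligodendrocyte markers stood at 1340 to 2858 against 2935 and 5593 (5 of 12 lower throughout, median -0.88), and oligodendrocyte precursor markers at 53.7 to 98.1 against 147 and 161 (3 of 6, median -0.56). Endothelial markers stood at 37.9 to 85.2 against 102 and 265 (2 of 11 lower and 1 higher throughout, median -0.87) and mural cell markers at 29.3 to 60.6 against 83.2 and 92.7 (3 of 5 lower and 1 higher, median -1.24). Choroid plexus markers, led by Ttr, stood at 58.1 to 111 against 1017 and 1420 (4 of 7 lower throughout, median -1.62). Markers of Drd2 projection neurons went the other way, at 22546 to 24631 against 8427 and 14320, with 7 of 9 higher throughout and a median of 1.15. General neuronal markers had 10491 to 12945 against 10206 and 10197 (2 of 12 higher and 4 lower throughout, median -0.13). The microglia genes thus sat between neuronal and other glial lists, with a median nearer 0 than those of the other glial and vascular lists, a difference that was not tested. The part of these markers in the values of Csf1r and Ctss was not tested.

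**Figure D4:**
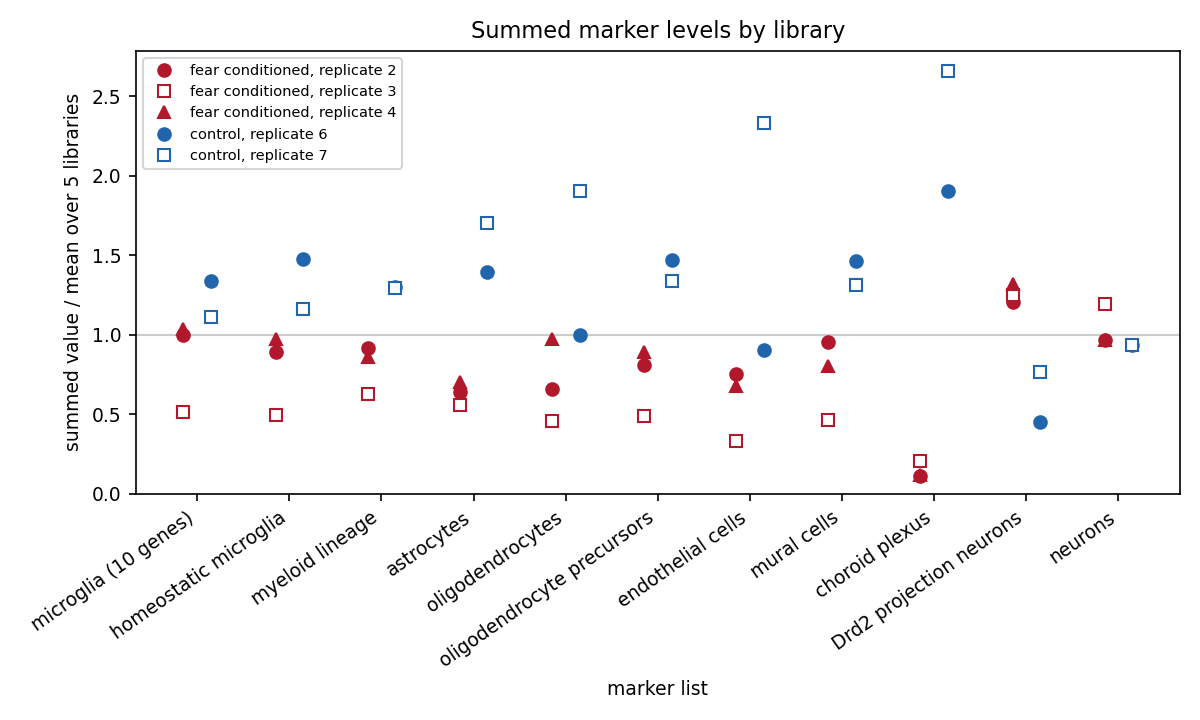
Summed normalised value of each marker list in each library, divided by the mean over the 5 libraries (1 on the axis). The microglia genes are lowest in fear conditioned replicate 3, as are most glial and vascular lists, choroid plexus markers are high in controls alone, and the markers of Drd2 projection neurons are higher in the fear conditioned libraries.

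Further microglia genes, listed for this account, showed the same uneven control libraries. Of 17 homeostatic microglia genes, none passed in limma, 4 had an unadjusted p under 0.05 (2 higher, 2 lower), 3 were higher and 4 lower throughout, and the median log2 fold change was 0.06. Gpr34, an orphan receptor of resting microglia, had 84, 95 and 144 reads in conditioned mice against 0 in either control. P2ry13, a further purine receptor beside P2ry12, had 70, 34 and 51 reads in conditioned mice against 1 and 0 in control mice. Both were thus nearly absent from the controls, although Csf1r and Ctss were at their highest there. Tmem119, a surface protein particular to resting microglia, had 10.9, 4.21 and 8.49 in conditioned mice against 0.968 and 10.2 in control mice, and thus was low in control replicate 6 alone. Sparc, Rnase4 and Sall1 were among the genes lower throughout. Several genes of this list, Sparc among them, are also used by other brain cells.

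Of 23 listed myeloid lineage genes in the table, 21 were tested. None passed in limma, 5 had an unadjusted p under 0.05 (3 higher, 2 lower), 3 were higher and 4 lower throughout, and the median was -0.43. The transcription factors that set the myeloid lineage were higher in every fear conditioned library, Spi1 with 56, 31 and 39 reads against 0 and 2, and Irf8 with 116, 122 and 130 reads against 0 and 4. The integrin chains of complement receptor 3 went the other way, Itgam with 3.70, 1.79 and 4.27 against 8.42 and 14.7 and Itgb2 with 3.27, 2.00 and 1.24 against 11.3 and 18.1. As with Tyrobp, several genes were lost from control replicate 7 alone. Laptm5 had 735 reads in control replicate 6 and 9 in replicate 7, Ly86 had 325 and 0, Fcer1g, which encodes an adaptor akin to that of Tyrobp, had 327 and 10, and Adgre1, the gene of the F4/80 antigen, had 376 and 0. Of the genes tested, 2 of 10 microglia genes, 5 of 17 homeostatic genes and 4 of 21 myeloid genes were at 3 reads or fewer in control replicate 7, as were 15.7% of all genes, and 0, 2 and 4 of these lists were so in control replicate 6, as were 4.23% of all genes.

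The partners of the 10 genes include ligands that neurons make, such as Cx3cl1 and Il34, and enzymes used by many cells. Cx3cl1, the ligand of Cx3cr1, had 560, 781 and 659 in conditioned mice against 506 and 902 in control mice, with a log2 fold change of -0.03 (standard error 0.32). Il34, the neuronal ligand of Csf1r, had 66.5, 65.9 and 75.6 in conditioned mice against 31.3 and 28.0 in control mice, with a log2 fold change of 1.2 (standard error 0.26, limma adjusted p = 0.197). Il34 was therefore higher in every fear conditioned library while its receptor was lower, and neither passed the adjusted threshold. Csf1, the other ligand, had 3.22, 2.00 and 3.23 in conditioned mice against 3.94 and 0.0527 in control mice, the last from 1 read. Syk, the kinase that acts below Tyrobp, had 10, 17 and 39 reads in conditioned mice against 0 in either control and was too low to be tested. Of the 8 partner genes tested, 2 had an unadjusted p under 0.05 (Il34 and Adam17, both higher), 2 were higher and 1 (Cd200) lower throughout, and the median was 0.05.

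Of 11 listed complement genes in the table, 8 were tested, none passed in limma, 4 had an unadjusted p under 0.05 (2 higher, 2 lower), and the median was -0.88. C1s1, a protease that acts downstream of C1q, had 0, 0 and 1 reads in conditioned mice against 83 and 201 in control mice. The values of the related C1ra were at most 21 reads and can be shared with its near-identical copy. Clu, a regulator of late complement made largely by astrocytes, had 346, 190 and 279 in conditioned mice against 545 and 480 in control mice, with a log2 fold change of -0.95 (standard error 0.30, limma adjusted p = 0.230). Cd55, which breaks up complement convertases, had 36, 42 and 39 reads against 0 in both controls. Of the 8 tested, 2 were higher and 3 lower throughout, while the C1q chains themselves overlapped between groups.

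Among 10 tested genes of cathepsins and class II presentation, the setting in which Ctss works, 2 had an unadjusted p under 0.05, both higher (Ctsc and Ctsz), 2 were higher and 1 lower throughout, and the median was 0.43. Ctsz had 81.0, 65.5 and 91.6 in conditioned mice against 27.3 and 7.86 in control mice, the direction opposite to Ctss. Cst3, the secreted inhibitor of cathepsins, had 831, 399 and 770 in conditioned mice against 861 and 1015 in control mice. Cd74, the invariant chain that Ctss cleaves, had 18, 21 and 29 reads against 34 and 0. Of 9 tested genes linked with activated microglia, 0 had an unadjusted p under 0.05 in limma and 0 were on 1 side throughout, with a median of -0.28. Apoe, which astrocytes also make, had 669, 298 and 666 in conditioned mice against 1102 and 348 in control mice. Cst7, Itgax and Clec7a, which mark the activated state, were not among the genes of the table.

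Border macrophage genes left little signal, while blood cell genes, led by Hbb-bs, left more. In control replicate 7 Hbb-bs had 59.1, against 53.6 for Ctss. The 4 border macrophage genes in the table summed to 6.0 to 8.14 in conditioned mice against 3.06 and 7.21 in control mice, with a median log2 fold change of 0.20 over the 3 tested, 1 of them higher throughout. Their defining markers Mrc1, Lyve1 and Pf4 were not among the genes of the table. The 6 blood cell genes in the table, mostly of haemoglobin, summed to 15.2 to 33.6 in conditioned mice against 36.0 and 85.8 in control mice, with a median of -0.32 over the 5 tested and none on 1 side throughout. The markers Ccr2, S100a8 and S100a9 of blood myeloid cells were not among the genes of the table, which lists only genes above 1 in at least 1 library.

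The mean profile of the 10 genes, with each gene centred on its own mean on the log2(value + 1) scale, was 0.25, -0.63 and 0.27 in conditioned replicates 2, 3 and 4, against 0.49 and -0.38 in control replicates 6 and 7. Among the 10 genes Cx3cr1 lay nearest to it, at a root mean square distance of 0.16, and Tyrobp farthest, at 0.92. The share of all genes tested that lay nearer ran from 0.081% for Cx3cr1 to 72.2% for Tyrobp. It was 60.5% for Aif1, 59.4% for Ctss, 35.4% for P2ry12 and 35.3% for Csf1r, and lower for the others. The mean profile was thus no close match for several of the 10 genes. The 10 other genes nearest to this profile were Mmgt2, Ftl1, Ndrg1, Mirg, Hopx, Otud7b, Gm8213, Lsm12, Fth1 and Rgs10, at distances of 0.09 to 0.16 over 5 libraries. None of them belonged to the marker lists.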

How the data were processed

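Libraries were made by the authors from 1 ng of RNA by SMARTer and Nextera XT chemistry. The authors deposited a normalised signal per gene and library, a read count divided by an effective library size per 1000000, and a gene length. The submitters' processing notes name DESeq and mm8, and the aligner and strand setting are not given in the sources used here. All values (100%) were whole multiples of 1 read within 0.01, which gave recovered reads. The only coordinates printed are those of the RefSeq promoter windows.

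limma 3.58.1 (lmFit, eBayes with trend, two-sided, Benjamini-Hochberg over 13560 genes) was run on log2(value + 1), mean value at least 1, all 5 libraries, with no covariate. Thresholds (adjusted p 0.05, absolute log2 fold change 0.5) follow the study. edgeR 4.0.16 and DESeq2 1.42.0 on recovered reads were alternatives. Fits were tested on simulated data. The genes and lists were chosen with earlier results of these data known. The genes named are the 10, those of the partner and complement lists, defining markers, and the 10 with the nearest profile; others named from the lists were chosen after their values were seen. R 4.3.3 and Python 3.11.15 were used.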

Additional observations from a re-analysis of the deposited data

How the results depend on the processing

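The number of microglia genes past both thresholds was 0 in limma and 0 under each alternative that kept all libraries. It ranged from 0 to 4 with a library left out, 4 only without control replicate 6, and the number over all genes ranged from 0 to 8025, with 3722 without control replicate 7, 1 without fear conditioned replicate 3, and 1128 in DESeq2 on all libraries. The number of genes with no overlap between groups ranged from 4 to 8 with a library left out, and was 4 or 5 after quantile normalisation, scaling by library reads and TMM scaling, which were added after the data were seen; Aif1 overlapped after quantile normalisation. The median log2 fold change ranged from -0.66 to 0.09 with a library left out, above 0 without fear conditioned replicate 3 (0.02) or control replicate 6 (0.09). C1qa turned to -0.081 after quantile normalisation, -0.0083 in edgeR and -0.045 in DESeq2, and ran from -0.68 to 0.93 with a library left out. The same range was -0.48 to 0.058 for C1qb, -0.78 to 0.35 for Cx3cr1 and -0.65 to 2.61 for Tyrobp; the cause was not tested. The other 6 genes kept their direction under every alternative run, but with a library left out C1qc ran from -0.75 to -0.064, Trem2 from -1.07 to -0.34, P2ry12 from 0.47 to 1.26, Aif1 from 0.85 to 2.09 (0.72 to 2.65 over all alternatives), Csf1r from -1.42 to -0.83 and Ctss from -1.73 to -1.05. With a value of at least 1 required in every library, Aif1 and Tyrobp were not tested. No paired analysis was possible because the groups share no replicate number.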

Other observations

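Groups of 3 and 2 libraries are too small for a check of single outlying libraries.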
